A study of Mus musculus with 11 samples.

Results

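Voltage-gated sodium and calcium channels, the HCN pacemaker channels and the sodium leak channel set how readily a neuron fires. A list of 28 genes that encode their subunits, chosen by symbol, was followed through 11 RNA-seq libraries of mouse hippocampus, and all 28 were found among the 30681 genes of the count table. The libraries formed 2 groups of mice aged 6 months. One, with 6 libraries, carries a conditional knockout (cKO) of Dclk3, a doublecortin-like kinase gene. The other, with 5 libraries, is wild type (WT) and is titled as the control of the cKO. Each library was made from polyadenylated RNA of a single hippocampus, the forebrain structure of dentate gyrus and CA fields. Not given in the sources used here were the recombinase, the cells it acts in and the exons it targets. Whether the libraries of a group came from separate mice is not stated either. Every p-value thus measures the spread between these libraries, which may be technical at least in part. The WT libraries read as both sexes (below), so they did not all come from the same mouse.

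In a neuron, sodium channel alpha subunits form the pore that carries the upstroke of the action potential, and beta subunits set their gating and placement. High-voltage calcium channels open on strong depolarisation and drive transmitter release and calcium signalling to the nucleus, with alpha2delta and beta subunits bringing the pore to the membrane. Low-voltage (T-type) calcium channels and HCN channels act near the resting potential, where they shape bursts and rhythmic firing. The leak channel NALCN, held in a complex with UNC79 and UNC80, adds a steady sodium current.

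The genes sit apart in the genome, with a few exceptions. On chromosome 2 (mm10), Scn3a and Scn2a lie 53.1 kb apart, and Scn1a follows after 503.3 kb. Scn2b and Scn4b lie 8.3 kb apart on the same strand of chromosome 9, and Cacna2d3 and Cacna1d are separated by 318.1 kb on chromosome 14. Among the letters at their start sites, RefSeq promoter windows (GRCm38.p6, 250 bases before to 50 after the start) matched 22 of the 28 genes in 32 windows. Cacna1a, Cacna1g, Cacna1h, Hcn3, Scn3a and Scn3b were not matched. Those windows held a median of 17.5 CG pairs, against 7 over all 32851 windows of that length. The 2 sequences printed here show the ends of that range among windows whose start is also the annotated gene start. They run 5′ to 3′ over the 250 bases before the start, with each CG pair in capitals. That of Cacna2d1 (chr5:15934441-15934690, plus strand) has 36 such pairs and 82.4% of its bases are G or C. That of Nalcn (chr14:123627145-123627394, minus strand) has 2 such pairs, at 45.2%.
Cacna2d1: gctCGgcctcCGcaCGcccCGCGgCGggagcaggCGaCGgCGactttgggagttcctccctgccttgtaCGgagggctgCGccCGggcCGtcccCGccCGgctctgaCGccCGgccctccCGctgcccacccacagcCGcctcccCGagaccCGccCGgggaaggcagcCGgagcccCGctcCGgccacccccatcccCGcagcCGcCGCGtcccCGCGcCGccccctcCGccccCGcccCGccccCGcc
Nalcn: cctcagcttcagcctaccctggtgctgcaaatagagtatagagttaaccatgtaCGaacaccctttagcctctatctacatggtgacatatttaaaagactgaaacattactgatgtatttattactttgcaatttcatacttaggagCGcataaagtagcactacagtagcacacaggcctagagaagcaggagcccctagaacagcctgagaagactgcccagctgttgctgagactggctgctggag

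The 2 promoters differ in composition while the 2 genes are expressed in every library. Of 4 motifs searched on both strands of the 300-base windows, GGGCGG (the GC box) was in 13 of 32 windows, or 40.6%, against 35.7% of all windows. GCGNGGGCG, the letters that Egr factors bind, was in 7 of 32 (21.9% against 5.55%), and such a match can overlap a GC box. TATAAA was in 2 of 32 (6.25% against 13.6%) and TGACGTCA, the palindromic cAMP response element, in 0 of 32 (1.79% of all windows). Several windows belong to 1 gene, and the members' windows are richer in CG pairs than most, so these shares describe the letters only.

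The targeted gene was read first. Dclk3 had 15.4, 21.1, 21.1, 25.7, 18.2 and 19.2 CPM (counts relative to the scaled library total) in cKO replicates 1 to 6, and 19.6, 21.03, 22.3, 28.1 and 21.1 CPM in WT replicates 1 to 5. The groups overlapped. The log2 fold change of -0.15 ± 0.12 (SE) missed the threshold of 0.05 (adjusted p = 0.727, quasi-likelihood F test of edgeR, Benjamini-Hochberg adjusted). One count covers the whole gene, so it cannot show whether part of it was deleted, and the group is called "labelled cKO" below.

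Library totals ran from 24001828 to 35674490 counts. Xist and 4 Y-linked genes read 3 WT libraries (replicates 1, 3 and 4) as female and the other 8 libraries as male, so sex and genotype are partly confounded. Summed astrocyte markers (7 genes) ran from 8359 to 10403 CPM in labelled cKO libraries and from 6743 to 7953 CPM in WT, without overlap. Most of that sum is Slc1a2 (4028 to 5680 CPM), and each of the 7 genes alone overlapped. The mean of their log2 values, each gene centred on its own mean, also overlapped (-0.08 to 0.40 against -0.23 to 0.01). By value all 7 lay above WT, 4 of them at an unadjusted p under 0.05. Summed neuronal markers (8 genes) overlapped, with 4921 to 6151 CPM against 5209 to 5484 CPM. Of 6 microglial markers, 4 had higher values at an unadjusted p under 0.05, and the sums ran from 561 to 816 CPM against 560.4 to 616 CPM. Of 6 meningeal markers, 5 had lower values at that level, with sums of 53.4 to 70.4 CPM against 59.5 to 97.4 CPM, and of 8 CA2 and CA3 markers 3 did. Over all tested genes 5.35% were lower and 3.84% higher at that level. Hippocampal markers were present in every library, with sums of 365 to 504 CPM for dentate granule cells and 667 to 904 CPM for CA1 pyramidal cells. In bulk tissue, fewer cells of a type and less RNA per cell cannot be told apart.

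Across the genotype comparison the 28 channel genes stayed close to WT. None passed the adjusted threshold of 0.05 in edgeR's quasi-likelihood test, where 0 of 16587 tested genes (0%) did. The smallest adjusted p among them was 0.416. In DESeq2, 62 of 14003 genes (0.443%) passed and no channel gene was among them. At an unadjusted p under 0.05 there were 2 channel genes, both lower (7.14% of 28), against 9.19% of all tested genes, of which 5.35% were lower and 3.84% higher. No channel gene had all labelled cKO libraries below all WT libraries (0.512% of all genes did) or above them (0.404%). The median log2 fold change of the list was 0.00 and that of all tested genes was 0.00. By value, 16 members lay above 0 and 12 below, from -0.27 to 0.13.

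How narrow the comparison is can be read from the intervals. The 95% interval of the fold change included no difference for 26 of 28 genes. It lay within a 1.2-fold change in either direction for 24 of 28, the other 4 being Scn4b, Cacna1g, Cacna1h and Hcn4, and within 1.5-fold for all 28. Standard errors ran from 0.04 (Cacnb3) to 0.18 (Hcn4) on the log2 scale. Every member had more than 1 CPM in each library and 26 had more than 10 CPM, the lower ones being Hcn3 and Hcn4, and raw counts ran from 38 to 13349.

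**Figure D1:**
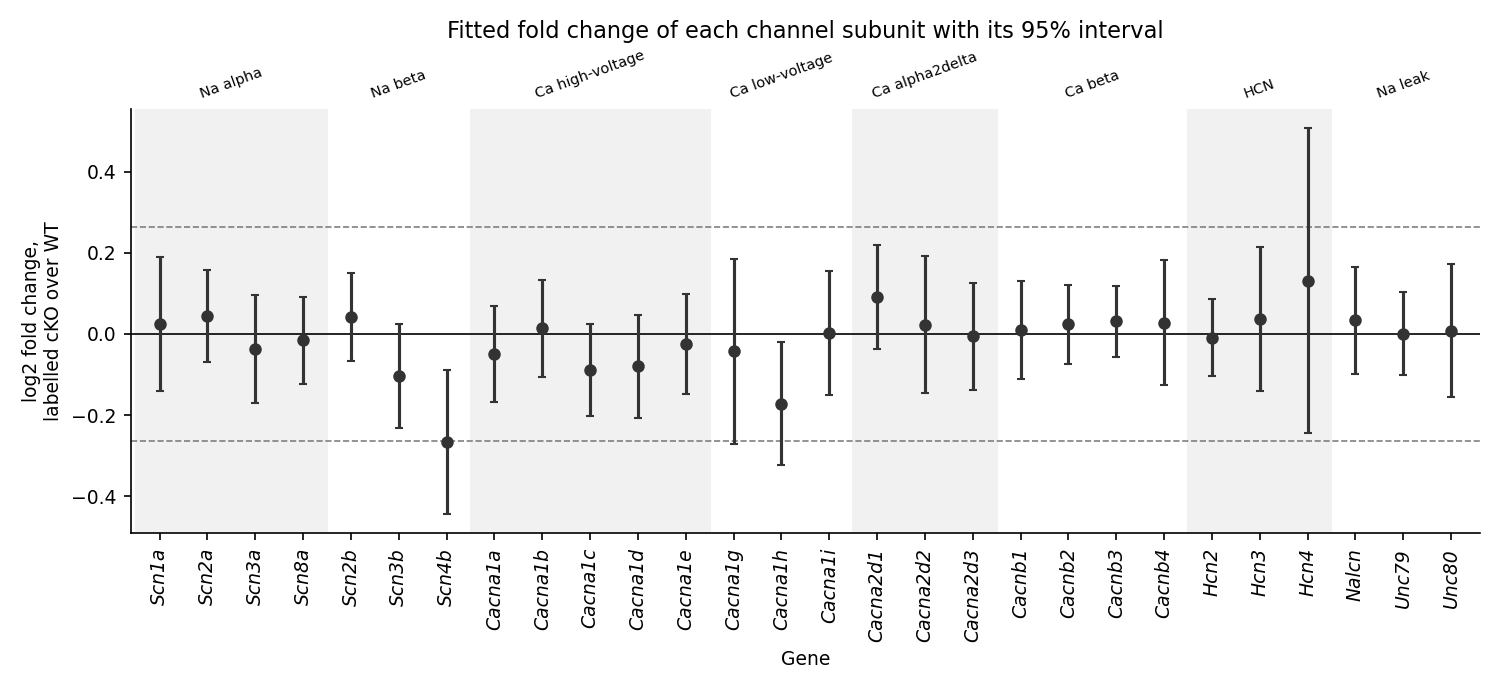
Fitted log2 fold change of each of the 28 genes, labelled cKO over WT (vertical axis), grouped by subfamily along the horizontal axis. Points are the fitted values, bars the 95% intervals, and the dashed lines mark 1.2-fold. The bars of Scn4b and Cacna1h lie below 0, and that of Hcn4, the least expressed gene, is the widest.

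Levels of different genes are compared as CPM per kilobase of annotated exon, over all 11 libraries. They ran from 0.29 for Hcn4 to 73.9 for Cacnb3, a span of 254-fold. Since the exon length is the union over all transcripts, genes with long, rarely used exons read low on that scale.

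**Figure D2:**
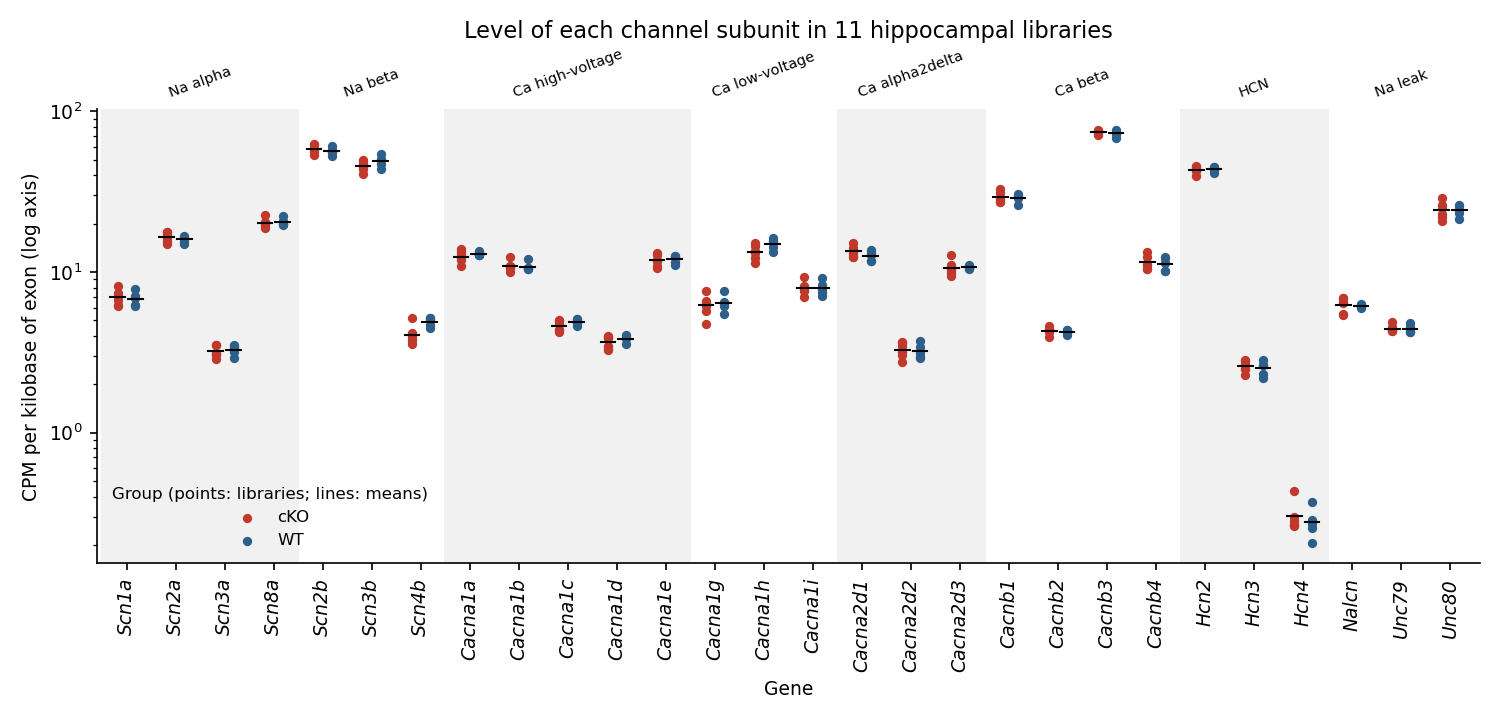
CPM per kilobase of exon (vertical log axis) of each gene in each library, by subfamily. Red points are labelled cKO libraries (n = 6), blue points WT libraries (n = 5), and black lines group means. Genes differ in level by up to 254-fold, while the points of both groups overlap for every gene.

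Among sodium channel alpha subunits, none of the 4 had an unadjusted p under 0.05. Scn8a, the main channel of the axon initial segment in mature neurons, was the most abundant. It had 358, 311, 297, 321, 319.7 and 314 CPM in the labelled cKO libraries and 315, 327, 309.9, 316 and 350.4 CPM in WT. The highest values were those of replicate 1 labelled cKO and WT replicate 5, and the groups overlapped throughout. On the log2 scale the fold change was -0.02 ± 0.05 (SE; adjusted p = 0.958, edgeR).

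Scn2a, the alpha subunit of excitatory axons, had 225, 195, 218, 205, 225 and 189 CPM against 197, 208, 209, 189.8 and 213 CPM in WT. The log2 fold change was 0.04 ± 0.05 (SE; adjusted p = 0.847, edgeR), and 3 of the 6 labelled cKO libraries lay above every WT library while the lowest values of both groups were close. With a sex term the value was -0.00466 on the log2 scale. Scn1a, known for its role in fast-spiking interneurons, differed by 0.02 ± 0.08 and Scn3a, which is prominent before birth, by -0.04 ± 0.06 on the log2 scale. Of the summed level per length of the 4 genes, Scn8a made up 43.3% ± 1.79 in labelled cKO libraries and 44.1% ± 1.07 in WT (SD over 6 and 5 libraries). Scn2a made up 35.1% ± 1.26 and 34.2% ± 0.837, and Scn3a 6.82% ± 0.376 and 7.05% ± 0.546. The make-up of the alpha subunits thus differed by less than the spread between libraries. Scn3a, Scn2a and Scn1a share 6.49%, 5.76% and 4.03% of their 50-base transcript stretches with transcripts of any other gene. A small part of their reads could thus be assigned to another gene.

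Of the sodium channel beta subunits, Scn4b had the lowest unadjusted p of all 28 genes. It encodes the subunit linked to resurgent sodium current (chromosome 9, 45138395 to 45154152, plus strand, mm10). Scn4b had 20.9, 19.0, 18.5, 25.9, 17.6 and 19.9 CPM in the labelled cKO libraries and 25.2, 25.8, 23.4, 22.2 and 25.8 CPM in WT. In 5 of the 6 labelled cKO libraries the value lay below every WT library, and replicate 4 stood above all of them. The means were 20.3 ± 2.95 and 24.5 ± 1.57 CPM (SD over 6 and 5 libraries). The log2 fold change was -0.27 ± 0.08 (SE, 95% interval -0.44 to -0.09) and missed the threshold (unadjusted p = 0.0056, edgeR adjusted p = 0.416). Over the alternatives in scaling, filter, tool and libraries the value stayed between -0.35 and -0.23, and the adjusted p ran from 0.18 (without cKO replicate 4) to 0.854.

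Scn4b is also strong in the thalamus, which borders the hippocampus, so the markers of that tissue are given beside it. Of 13 tested markers of thalamus and neighbouring tissue, 4 had lower values at an unadjusted p under 0.05 and 0 had higher ones. Over all tested genes 5.35% were lower and 3.84% higher at that level, and no gene in or outside the list passed the adjusted threshold in this fit. By value 8 of the 13 lay below WT and 5 above, with a median log2 fold change of -0.21. The 4 with lower values were Prkcd, a kinase gene strong in thalamic relay neurons (20.4 to 29.0 CPM against 25.9 to 34.4 CPM), Zic1, Ramp3 and Rgs16. Zic1, a transcription factor gene, had 5.69 to 7.80 CPM against 8.71 to 9.89 CPM in WT, and Ramp3 had 2.33 to 3.12 against 3.24 to 4.97 CPM, each without overlap. Replicate 4 labelled cKO, the highest of its group for Scn4b, was the highest for Prkcd and Zic1 and the lowest for Ramp3, Zic4, Rorb and Ptpn4 of that list. The summed level of the list overlapped, with 198 to 259 CPM in labelled cKO libraries and 216 to 252 CPM in WT. Much of that sum is Ptpn4 (63.2 to 108 CPM) and Calb2 (18.2 to 44.6 CPM), which are among the 5 above WT by value. Their log2 fold changes were 0.13 and 0.16, so the sum says little about the genes with lower values. Of the 15 genes, Shox2 and Gbx2 were too low to be tested. The part of this tissue in the values of Scn4b was not tested.

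Scn2b, which is bonded to the alpha subunit, was the most abundant beta subunit per length. It had 271, 249.9, 289, 292, 269 and 262 CPM in the labelled cKO libraries and 269.8, 244, 260.1, 285 and 262 CPM in WT. The ranges overlapped and the log2 fold change was 0.04 ± 0.05 (SE; adjusted p = 0.849, edgeR). Scn3b, which binds the alpha subunit without a covalent bond, had 265, 239, 222, 247, 256 and 271 CPM against 239, 275, 256, 299 and 274 CPM. Its log2 fold change of -0.10 ± 0.06 (SE) did not pass either (unadjusted p = 0.104, edgeR adjusted p = 0.616), and WT replicate 1 lay among the lower labelled cKO libraries. Of the summed level per length of the 3 beta subunits, Scn4b made up 3.76% ± 0.45 and 4.45% ± 0.443 (SD over 6 and 5 libraries), against 54.0% and 51.2% for Scn2b.

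**Figure D3:**
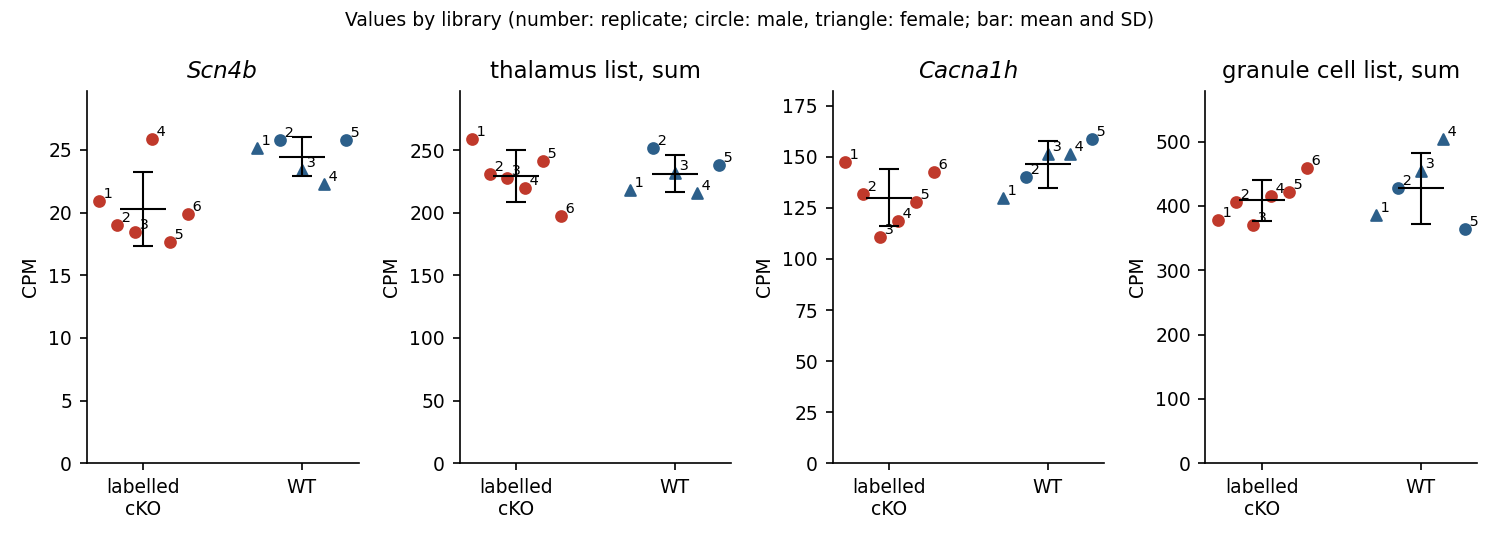
CPM (vertical axes, from 0) of Scn4b, of Cacna1h and of the summed marker lists of thalamus with neighbouring tissue (15 genes) and of dentate granule cells (6 genes) in each library. Circles are male and triangles female libraries, numbers are replicates, and bars give mean and SD. The groups overlap in every panel, and the list sums run from 198 to 259 CPM and from 365 to 504 CPM.

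The 5 high-voltage calcium channel alpha1 genes had values near WT, and 4 of the 5 lay below it without passing the test. Cacna1a, the P/Q-type pore of presynaptic terminals, was the most abundant per length. It had 152, 139.7, 124, 159.6, 135 and 146 CPM in the labelled cKO libraries and 147, 145, 146, 145 and 155 CPM in WT. The labelled cKO libraries spread to both sides of the tight WT values. The log2 fold change was -0.05 ± 0.06 (SE; adjusted p = 0.835, edgeR).

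Cacna1c, the main L-type pore of the brain, had 107, 100.2, 91.8, 89.7, 105 and 92.0 CPM against 104, 97.7, 108, 108 and 101 CPM in WT. The difference on the log2 scale was -0.09 ± 0.05 (SE; unadjusted p = 0.117, edgeR adjusted p = 0.634), and 3 labelled cKO libraries lay below the lowest WT library. With a sex term the value of Cacna1c was -0.03, and -0.02 in the 8 male libraries. Cacna1d, the second L-type pore, had 49.5, 49.1, 41.5, 41.9, 50.4 and 43.5 CPM against 44.7, 49.0, 51.3, 48.7 and 49.1 CPM. In the same 3 labelled cKO libraries, replicates 3, 4 and 6, this gene too was below every WT value. Its log2 fold change was -0.08 ± 0.06 (SE; adjusted p = 0.719, edgeR). Cacna1b, the N-type pore, differed by 0.01 ± 0.06 and Cacna1e, the R-type pore, by -0.02 ± 0.06 on the log2 scale. Per length, Cacna1a, Cacna1e and Cacna1b made up 29.0%, 27.0% and 24.3% of the summed level in WT, Cacna1c 11.02% and Cacna1d 8.64%. In labelled cKO libraries these shares were 28.7%, 27.2%, 25.1%, 10.6% and 8.37%.

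Cacna1h was the second gene with an unadjusted p under 0.05. It encodes a T-type pore (chromosome 17, 25374285 to 25433783, minus strand, mm10). Cacna1h had 148, 132, 111, 119, 128 and 143 CPM in the labelled cKO libraries and 129.7, 140.2, 152, 152 and 159 CPM in WT. WT replicate 1 was lower than 3 of the labelled cKO libraries, so the groups overlapped. The means were 129.9 ± 13.98 and 146 ± 11.4 CPM (SD over 6 and 5 libraries). Its log2 fold change was -0.17 ± 0.07 (SE, 95% interval -0.32 to -0.02) and missed the threshold (unadjusted p = 0.0281, edgeR adjusted p = 0.496). The unadjusted p was above 0.05 without cKO replicate 3 (0.0643) or 4 (0.0605) and without WT replicate 3 (0.055), 4 (0.0537) or 5 (0.0723), and the adjusted p ran from 0.209 to 0.854 over the alternatives.

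Dentate granule cells are among the cells that express Cacna1h, and their 6 markers are given beside it. One of them, Tdo2, had lower values at an unadjusted p under 0.05, as did 5.35% of all tested genes. By value 5 of 6 lay below WT, and none passed the adjusted threshold, as was so for all tested genes. The summed level of the 6 markers overlapped, with 371 to 459 CPM in labelled cKO libraries and 365 to 504 CPM in WT. Much of that sum is C1ql2 (78.9 to 170 CPM) and Calb1 (87.9 to 139 CPM), with log2 fold changes of 0.19 and -0.16. Dsp and Tdo2, at -0.51 and -0.55, add less to it, and the median of the 6 markers was -0.13. The part of granule cells in the values of Cacna1h was not tested.

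The other T-type pores had values closer to WT. Cacna1g, strong in the thalamus, differed by -0.04 ± 0.11 and Cacna1i by 0.00 ± 0.07 on the log2 scale. Per length, Cacna1h made up 48.4% ± 2.67 of the 3 genes in labelled cKO libraries and 51.1% ± 2.91 in WT (SD over 6 and 5 libraries), with Cacna1i at 29.0% and 27.1% and Cacna1g at 22.5% and 21.8%.

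None of the 7 auxiliary calcium channel subunits had an unadjusted p under 0.05. Cacna2d1, an alpha2delta subunit that carries the channel to the surface, had 175, 154, 161, 165, 189 and 155 CPM in the labelled cKO libraries and 144, 171, 163, 145 and 159 CPM in WT. WT replicates 1 and 4 lay below all of the labelled cKO libraries, and the other 3 among them. The difference on the log2 scale was 0.09 ± 0.06 (SE; unadjusted p = 0.15, edgeR adjusted p = 0.674). Those 2 WT libraries are female, while the other female library, WT replicate 3, had 163 CPM and lay among the labelled cKO libraries. With a sex term or in the 8 male libraries the value of Cacna2d1 was 0.01 or 0.02. Cacna2d2 and Cacna2d3 differed by 0.02 ± 0.08 and -0.01 ± 0.06 on the log2 scale.

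Cacnb3, a cytoplasmic beta subunit, had the highest level per length of all 28 genes and the smallest spread, with a coefficient of variation of 3.48% over the 11 libraries. It had 303, 302, 287, 306, 294 and 302 CPM in the labelled cKO libraries and 296, 309, 272, 292 and 295 CPM in WT. Both extremes of the gene, 272 and 309 CPM, were WT libraries. The log2 fold change was 0.03 ± 0.04 (SE; adjusted p = 0.871, edgeR). The other beta subunits, Cacnb1, Cacnb2 and Cacnb4, had fold changes from 0.01 to 0.03 on the log2 scale. Of the exon bases of Cacnb4 15.99% lie opposite A430018G15Rik, and of those of Cacnb2 7.32% lie opposite other annotated genes. Within the subfamily Cacnb3 made up 62.4% of the summed level per length in labelled cKO libraries and 62.1% in WT, and Cacnb2 3.62% in both.

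Of the HCN channels on the list, Hcn2 made up 93.7% ± 0.494 of the summed level per length in labelled cKO libraries and 93.9% ± 0.764 in WT (SD over 6 and 5 libraries). It had 138, 136, 142, 143, 127 and 147 CPM in the labelled cKO libraries and 144, 143, 138, 140.0 and 132 CPM in WT. The values overlapped throughout and the log2 fold change was -0.01 ± 0.04 (SE; adjusted p = 0.973, edgeR). Hcn3 differed by 0.04 ± 0.08, and 17.12% of its exon bases lie opposite exons of Pklr. The library kit marks strand, but whether the counting used it was not stated in those sources, so reads of such pairs may not be separated. Hcn4, the channel of the cardiac pacemaker, had 1.85 ± 0.409 CPM in labelled cKO libraries and 1.69 ± 0.369 CPM in WT (SD over 6 and 5 libraries). Its 95% interval, from -0.24 to 0.51 on the log2 scale, was the widest of the list.

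In the leak channel complex, Unc80, the scaffold that binds the pore, had the highest level per length. It had 415, 375, 319, 299, 364 and 333 CPM in the labelled cKO libraries and 334, 377, 349.8, 310.1 and 374 CPM in WT. Replicate 1 labelled cKO was the highest library and replicate 4 the lowest, with all WT values between them. The log2 fold change was 0.01 ± 0.08 (SE; adjusted p = 0.987, edgeR). Nalcn, the pore, differed by 0.03 ± 0.06 and Unc79 by 0.00 ± 0.05 on the log2 scale. Unc80 made up 69.3% of the summed level per length in labelled cKO libraries and 69.5% in WT, and Nalcn 17.96% and 17.6%.

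Subunits and binding partners outside the list were read in the same fit. Of 37 listed partners 33 were tested, and 0 passed the adjusted threshold. At an unadjusted p under 0.05 there was 1 higher (Ank3) and 0 lower, against 3.84% higher and 5.35% lower over all tested genes, so the partners held no more such genes than the background. Ank3, the ankyrin that anchors sodium channels at the axon initial segment, had 408 ± 18.2 CPM in labelled cKO libraries and 379.7 ± 18.1 CPM in WT (SD over 6 and 5 libraries). Its log2 fold change was 0.10 ± 0.05 (SE; unadjusted p = 0.0373, edgeR adjusted p = 0.509). Among 12 tested sodium channel partners the next by p were the intracellular fibroblast growth factor homologues Fgf13, Fgf14 and Fgf12, with log2 fold changes of 0.08, 0.08 and 0.09.

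Among 16 tested calcium channel partners, Cabp1, a calmodulin-like calcium sensor, had the lowest p, with a log2 fold change of -0.11 ± 0.06 (SE; adjusted p = 0.576, edgeR). Rrad and Cacna2d4 had 0.30 ± 0.23 and 0.12 ± 0.16 on the log2 scale. Of 5 tested HCN and leak channel partners none had an unadjusted p under 0.05. Pex5l, which binds HCN channels, differed by 0.07 ± 0.05, Kcne2 by -0.50 ± 0.41 and Tmem28 by -0.05 ± 0.06 on the log2 scale. Like the channel list itself, each partner list thus held no gene past the adjusted threshold.

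Within each group, 1 library stood above the rest in these genes. With each gene centred on its mean over the 11 libraries, the mean of the 28 log2 values was 0.10 in replicate 1 labelled cKO and 0.10 in WT replicate 5, and from -0.06 to 0.01 in the other 9 libraries. The highest value of all 11 libraries stood in replicate 1 labelled cKO for 9 genes, in replicate 4 labelled cKO for 5, and in replicates 3 and 5 labelled cKO and WT replicate 5 for 3 each. In replicate 1 labelled cKO, 23 of 28 genes lay above their own mean, in WT replicate 5 22 did, and in the other 9 libraries from 6 to 16. Neither of these 2 libraries held the lowest value of any gene.

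The first principal component of the values centred within each group held 35.1% of their variance, and the next components held 28.4% and 11.9%. Its largest weights among genes were those of Cacna1g (0.465), Unc80 (0.322), Scn1a (0.294), Cacna1i (0.287) and Cacnb4 (0.274). Among libraries the weights ran from -0.475 in replicate 4 labelled cKO to 0.606 in replicate 1 labelled cKO, with 0.456 in WT replicate 5. These 5 genes belong to 4 subfamilies, and a component of 11 libraries is a description of them.

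**Figure D4:**
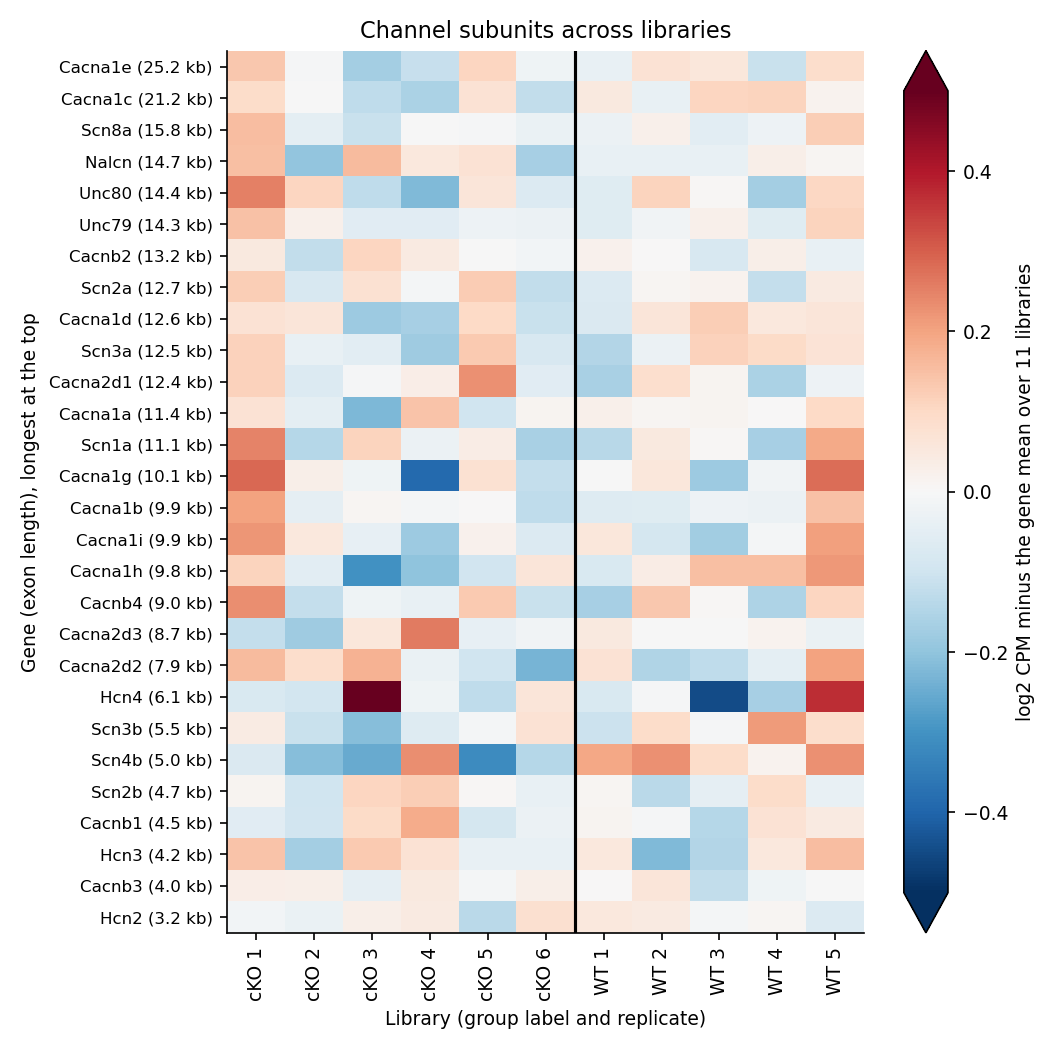
Log2 CPM of each of the 28 genes minus its mean over the 11 libraries (colour scale), with genes from the longest exon length at the top to the shortest at the bottom and libraries in columns. The columns of replicate 1 labelled cKO and WT replicate 5 are mostly above 0, with 23 and 22 genes above their mean.

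Channel transcripts are long, and genes of long exon length as a class also stood high in replicate 1 labelled cKO and WT replicate 5. The median exon length was 10.0 kb over the 28 genes and 4.18 kb over all tested genes. The 14 members over 10 kb had a mean centred log2 value of 0.14 in replicate 1 labelled cKO and 0.08 in WT replicate 5, and of -0.08 in replicates 4 and 6 labelled cKO. All 1270 genes over 10 kb with a mean of at least 10 CPM had medians of 0.10, 0.04, -0.05 and -0.03 in those 4 libraries. The 910 genes of up to 2 kb had -0.10 and -0.08 in the first 2 libraries and 0.02 and 0.08 in the last 2. The 14 shorter members had 0.06 in replicate 1 labelled cKO and 0.12 in WT replicate 5, where they stood above the 14 longer ones. Whether length accounts for the members' pattern was not tested.

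**Figure D5:**
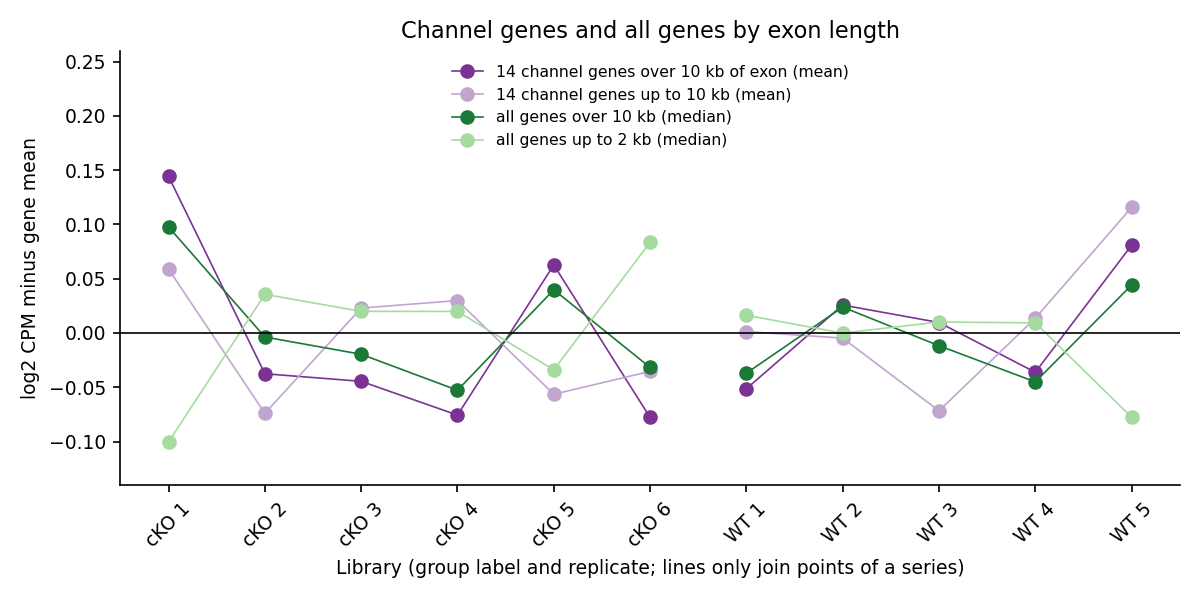
Mean centred log2 CPM of the channel genes over 10 kb of exon and up to 10 kb (14 each), and the median of all genes over 10 kb and up to 2 kb, in each library (horizontal axis). Long channel genes and all long genes are both highest in replicate 1 labelled cKO, at 0.14 and 0.10, where genes up to 2 kb are lowest, at -0.10.

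Leaving out both of these libraries, an alternative chosen after seeing the data, gave 0 channel genes past the adjusted threshold, where 13 of 16712 genes passed, all lower. The median log2 fold change of the list was then 0.01. Scn4b had -0.26 (unadjusted p = 0.02) and Cacna1h -0.18 (unadjusted p = 0.0189).

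Sex was not balanced, and the values were read with it in the fit. With a sex term 21 of 28 genes lay below WT by value, with a median log2 fold change of -0.04. In the 8 male libraries alone (6 labelled cKO and 2 WT) the count was 21 of 28 and the median -0.04. No member passed the adjusted threshold in either fit. Scn4b had -0.34 in both (unadjusted p = 0.00752 and 0.0131), with 17.6 to 25.9 CPM in the labelled cKO libraries, 25.75 and 25.76 CPM in the male WT libraries and 22.2 to 25.2 CPM in the female ones. Cacna1h had -0.20 in both (unadjusted p = 0.0567 and 0.0623), with 140.2 and 159 CPM in the male WT libraries and 129.7 to 152 CPM in the female ones. Among other members, Scn2b had 0.11, Scn8a -0.08 and Unc80 -0.10 in both, with no unadjusted p under 0.05. No labelled cKO library is female, so the fit with a sex term also compares the groups through the male libraries. The 2 fits are nearly the same comparison, and their matching values are not separate evidence. Both rest on 2 male WT libraries, 1 of which is WT replicate 5, which stood high in these genes.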

How the data were processed

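Per the labels' protocols, polyadenylated RNA of 1 hippocampus per library was prepared with a strand-marking kit. The build mm10 and bcl2fastq 2.17.1.14 are named in the submitters' processing notes. Not given in the sources used here were the aligner, counting tool, annotation and strand setting. The authors deposited raw counts per Ensembl gene, for 30681 genes, of which 30566 matched a symbol in GENCODE M21. No pair of replicates agreed within sampling noise (chi-square per degree of freedom at least 5.72 in 25 pairs).

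Groups were taken from the genotype labels. Genes passing filterByExpr (16587) were scaled with TMM and tested with edgeR's 2-sided, robust quasi-likelihood F test, Benjamini-Hochberg adjusted over all of them, at 0.05. The common biological coefficient of variation was 9.56%. Levels are CPM on TMM-scaled totals, per kilobase of the union of exons where genes are compared. Centred values are log2 CPM with a prior count of 2, computed here from the deposited counts. Intervals are at 95% and cover the spread between libraries. Sex was read from Xist (female above 100 CPM) and Y-linked genes. The steps were tested on simulated data. R 4.3.3, edgeR 4.0.16, limma 3.58.1 and DESeq2 1.42.0 were used.

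The members and lists were chosen with earlier results of these data known. Values in every library are given for the 8 members of smallest unadjusted p and the member of highest level per length in each subfamily, 13 in all, and up to 4 partners of smallest p are named per partner list. Some items are not reported here. Alternatives were other scaling factors, other filters, DESeq2, limma-voom with quality weights, the replicate number as a block, a sex term, the male libraries and each library left out. Leaving out cKO replicate 1 with WT replicate 5, and the count of members at an unadjusted p under 0.05, were added after the data were seen.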

Additional observations from a re-analysis of the deposited data

Results flagged for a closer look

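In 56 combinations of a member and a group, 3 had 1 library whose gap to the next, as a share of the group's range, was above the 95% critical value of Dixon's test, which flags about 1 in 20 groups by chance. Cacna1b had 119.6 CPM in WT replicate 5, with the other 4 WT libraries at 103.3 to 106 CPM (0.835 of the range). Cacna1a had 154.8 CPM in the same library, against 145 to 147.1 CPM (0.782 of the range). Hcn4, at the bottom of the measured levels, had 2.664 CPM in cKO replicate 3, against 1.593 to 1.821 CPM in the other libraries labelled cKO (0.787 of the range).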

How the results depend on the processing

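No member passed the adjusted threshold under any of the 22 alternatives. Over all genes, the count past it was 0 as reported, 1 with library totals only, 3 with no filter, 62 in DESeq2 and 13 without cKO replicate 1 and WT replicate 5. It ran from 0 to 14 with 1 library left out, with 14 without WT replicate 5, 2 without WT replicate 2 and 1 without WT replicate 1. At an unadjusted p under 0.05, 2 members became 4 with library totals only and 1 with a sex term or in the 8 male libraries. With 1 library left out this count ran from 1 to 3, being 1 without cKO replicate 3 or 4 or WT replicate 3, 4 or 5. Library totals alone shift the median of all genes by -0.03. The members' median stayed from -0.04 to 0.03.

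Signs turned for Unc80, Scn2a, Cacnb3, Hcn2 and Scn8a among the 13 members followed by name. Unc80 had -0.0201 with library totals only, -0.10 with a sex term, -0.10 in the male libraries and -0.0217 without cKO replicate 1 and WT replicate 5. Scn2a had -0.00466 and -0.00241, Cacnb3 -0.014 and -0.0116, and Hcn2 0.00787 and 0.0102 with a sex term and in the male libraries. With 1 library left out, Unc80 ran from -0.0433 to 0.0505, Scn8a from -0.0469 to 0.013 and Hcn2 from -0.0289 to 0.0184. The cause was not tested.

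With the replicate number as a block, on replicates 1 to 5, 3 members had an unadjusted p under 0.05, 0 passed the adjusted threshold, and Scn4b had -0.27. Same-numbered libraries correlated at -0.316 to 0.213, and 1 of 5 correlated best with its own number. The titles give only a number, and these correlations cannot settle whether same-numbered libraries share more than that. The stricter filter leaves out Hcn4, with 27 members tested. Depth limits Hcn4 most, with counts from 38 upward.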
